A study of Homo sapiens with 6 samples.

Results

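The 34 genes described here encode the folding and quality control machinery of the endoplasmic reticulum (ER): 12 chaperones and cochaperones, 9 disulfide enzymes, 8 genes of ER-associated degradation, 3 stress sensors or their transcription factors, and 2 subunits of the translocation channel. They were taken by gene symbol from a list of named ER genes, chosen with earlier results of these data known. All 34 were among the 57736 genes of the count table and among the 15421 genes that passed the low-count filter and were tested. Their expression was compared between AALE cells, human bronchial basal epithelial cells transformed with SV40 and hTERT, carrying a lentiviral control vector (3 libraries) and the same line carrying a lentiviral NRG1 overexpression vector (3 libraries). NRG1 encodes neuregulin, a growth factor ligand of the ERBB receptors. Both groups were stable selected pools grown in small airway epithelial growth medium, and their polyA RNA was sequenced. The labels give no time after transduction and do not say whether the libraries are from different cultures; the p-values therefore cover the library-to-library spread alone, and this may be technical.

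Proteins that enter the secretory pathway are threaded into the ER, folded with the help of HSP70- and HSP90-type chaperones, lectin chaperones and disulfide isomerases, and sent back to the cytosol for degradation when folding fails. When unfolded proteins build up, the sensors IRE1 (gene ERN1), ATF6 and PERK (gene EIF2AK3) start the unfolded protein response. IRE1 splices the mRNA of the transcription factor XBP1, ATF6 is cut to release a transcription factor, and both factors act on promoters of chaperone and degradation genes, many of which carry an ER stress response element (ERSE). Gene-level counts do not tell spliced from unspliced XBP1 mRNA, or cut from uncut ATF6 protein.

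The promoters are shown to group the members by their DNA letters. The element is known from chaperone and degradation genes, so its frequency among the members is not an independent finding. RefSeq windows of GRCh38.p14, a different build from the hg19 named by the submitters, were found for 31 of the 34 genes, in 39 windows that reach from 250 bases before the start to 50 after it. PDIA3, DERL1 and DERL3 had no window. On either strand, the ERSE (CCAAT and CCACG with 9 bases of any kind between them) was present in 8 of the 31 genes. That was 10 of their 39 windows, against 0.0769% of all 35116 windows. The shorter ERSE-II (ATTGG and CCACG with 1 base between them) was present in 3 of the 31 genes. That was 3 of the 39 windows, against 0.0541% of all windows. Both motifs end in CCACG, and no gene held an exact match to both. Only exact letters were counted. A near match, such as ccaatgggcggcagccaca in the HERPUD1 stretch below, was scored as absent. A further motif of this response, the UPRE (TGACGTGG), was present in HYOU1 and TXNDC5 (2 of the 39 windows) and in 0.729% of all windows. The HYOU1 site overlapped an ERSE-II. A match is a description of the letters and does not show that a factor binds there. The bases just before the start are given 5′ to 3′ for 4 genes with an unadjusted p under 0.05 (HSPA5, HSP90B1, XBP1 and HERPUD1) and for CALR, whose p was higher, with ERSE or ERSE-II in capitals.
HSPA5 (chr9:125241344-125241593, minus strand): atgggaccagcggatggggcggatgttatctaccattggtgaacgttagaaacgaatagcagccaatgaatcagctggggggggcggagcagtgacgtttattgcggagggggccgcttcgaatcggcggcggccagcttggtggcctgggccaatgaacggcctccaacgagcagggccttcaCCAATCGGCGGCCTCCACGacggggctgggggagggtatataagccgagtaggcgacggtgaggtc
HSP90B1 (chr12:103930160-103930409, plus strand): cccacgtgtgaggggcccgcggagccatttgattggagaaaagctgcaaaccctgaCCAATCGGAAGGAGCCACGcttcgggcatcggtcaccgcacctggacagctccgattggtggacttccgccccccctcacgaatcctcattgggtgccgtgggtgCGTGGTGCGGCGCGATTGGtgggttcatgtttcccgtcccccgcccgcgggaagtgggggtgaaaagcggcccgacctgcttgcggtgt
XBP1 (chr22:28800570-28800819, minus strand): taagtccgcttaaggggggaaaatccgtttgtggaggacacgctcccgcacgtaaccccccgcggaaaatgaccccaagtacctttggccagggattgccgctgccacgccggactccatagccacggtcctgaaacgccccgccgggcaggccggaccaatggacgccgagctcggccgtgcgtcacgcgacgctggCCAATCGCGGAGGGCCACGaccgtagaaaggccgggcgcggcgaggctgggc
HERPUD1 (chr16:56931892-56932141, plus strand): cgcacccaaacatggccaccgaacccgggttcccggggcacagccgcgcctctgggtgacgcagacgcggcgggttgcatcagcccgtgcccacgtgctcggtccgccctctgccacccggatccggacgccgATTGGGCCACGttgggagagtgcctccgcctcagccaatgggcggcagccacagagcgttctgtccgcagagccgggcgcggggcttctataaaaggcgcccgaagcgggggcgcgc
CALR (chr19:12938359-12938608, plus strand): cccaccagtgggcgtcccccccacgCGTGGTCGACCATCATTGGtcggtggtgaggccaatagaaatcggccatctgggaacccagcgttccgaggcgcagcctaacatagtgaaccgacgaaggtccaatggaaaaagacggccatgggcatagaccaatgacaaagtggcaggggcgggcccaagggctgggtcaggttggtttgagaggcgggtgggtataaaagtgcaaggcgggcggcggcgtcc
HSP90B1 held 2 copies of the ERSE, one in each orientation, and HERPUD1 held the ERSE-II. In HSPA5 the exact motif ran from base 66 to base 48 before the start, in XBP1 from base 52 to base 34 and in HERPUD1 from base 117 to base 107.
The sites of the other genes follow, each read on the strand of its gene.
CRELD2: CGTGGCGAACTCGGATTGG
ERO1B: CGTGGTCCCGCCTCATTGG
CANX: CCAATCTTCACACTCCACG
PDIA6: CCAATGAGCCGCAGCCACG
SDF2L1: CGTGGACCAAT
HYOU1: CGTGGTCCAAT
The HYOU1 window held its site at 2 places, and the CANX site lay in 3 overlapping windows of that gene.

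Library totals ran from 8612234 to 13207620 expected counts, and the lowest count of a member was 20 (DERL3 in 1 library). Levels are given as CPM, expected counts brought to a common library size, with library sizes adjusted by edgeR's TMM method. NRG1 itself was at 7.87 to 12.3 CPM in the control libraries and at 3781 to 6647 CPM in the NRG1 libraries, as the labels say. Control 3 and NRG1 1 stood apart. Control 3 had a root mean square log2 distance of 0.68 to its own group, against 0.54 for control 1 and control 2, and NRG1 1 lay 0.65 from its own group and 0.64 from the controls. Summed markers of airway basal cells, the labelled cell type (10 genes), were at 9062 to 13760 CPM in control and 6018 to 7598 CPM in NRG1 libraries. KRT5, KRT17 and KRT14 made up most of that sum, with log2 fold changes of -0.51, -0.995 and -2.45. NGFR (-3.05), S100A2 (-0.95) and ITGB4 (-0.46) were also lower on average, while TP63 (0.09), ITGA6 (-0.000288) and KRT15 (2.30) were not. NGFR was at 18.3, 46.8 and 302 CPM in control, so control 3 stood apart. KRT15 was at 13.4 CPM in NRG1 1, inside its control range of 7.49 to 16.2 CPM. DAPL1 was not tested. Secretory cell markers (11 found in the table) summed to at most 4.43 CPM in 4 libraries, but to 34.4 CPM in control 3 and 61.7 CPM in NRG1 3; SCGB3A2 was at 0 counts in all 6. Fibroblast markers (10 genes) summed to 140.3 to 169 CPM in control and 70.1 to 96.4 CPM in NRG1, ciliated markers (9 found) to at most 36.1 CPM and leukocyte markers (10 genes) to at most 12.2 CPM, with CD3E and MS4A1 at 0 counts in all libraries. COL6A3, COL1A1, FBLN1 and DCN made up most of the fibroblast sum. COL6A3 (log2 fold change -3.19), DCN (-1.56), THY1 (-1.02) and COL1A1 (-0.88) were lower on average in NRG1, while FBLN1 (0.12) was not. LUM, COL1A2, COL3A1, PDGFRA and PDGFRB were not tested and reached at most 1.85 CPM (PDGFRA in NRG1 3). The part of these differences in the results was not tested, and in bulk RNA fewer cells of a type and less RNA per cell cannot be told apart.

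None of the 34 genes passed the test over all genes, and the direction among those nearest to passing was downward. In edgeR's quasi-likelihood test, adjusted by Benjamini-Hochberg, 0 of 34 had an adjusted p under 0.05, where 0.00648% of all tested genes did (NRG1 alone). The unadjusted p was under 0.05 for 9 genes, all of them lower in NRG1, or 26.5% of the members against 6.51% of all tested genes for lower and 4.64% for higher. These 9 were the chaperones and folding factors HSPA5, HSP90B1, DNAJB9, MANF and PPIB, the oxidase ERO1B, the degradation factor HERPUD1, and the stress response genes XBP1 and ERN1. In 8 genes all 3 NRG1 libraries lay below all 3 controls (23.5% of the members; 10.2% of all genes), and in 2 they lay above (5.88%; 9.36% of all genes). In either direction that is 29.4% of the members and 19.6% of all genes. The median log2 fold change of the 34 genes was -0.23, with 23 below 0, and that of all tested genes was -0.00029. DESeq2 called 1 member, DNAJB9 as lower, where it called 1.36% of all genes, and edgeR without a low-count filter called HSPA5, DNAJB9 and MANF as lower, where it called 0.731% of all genes. The count was 0 with a filter of 1 CPM in 3 libraries (0.0065% of all genes called), with limma-trend, limma-voom or a replicate block (0.013% each), and with each single library left out (0.00648% of all genes called, or 0.318% without NRG1 1).

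**Figure D1:**
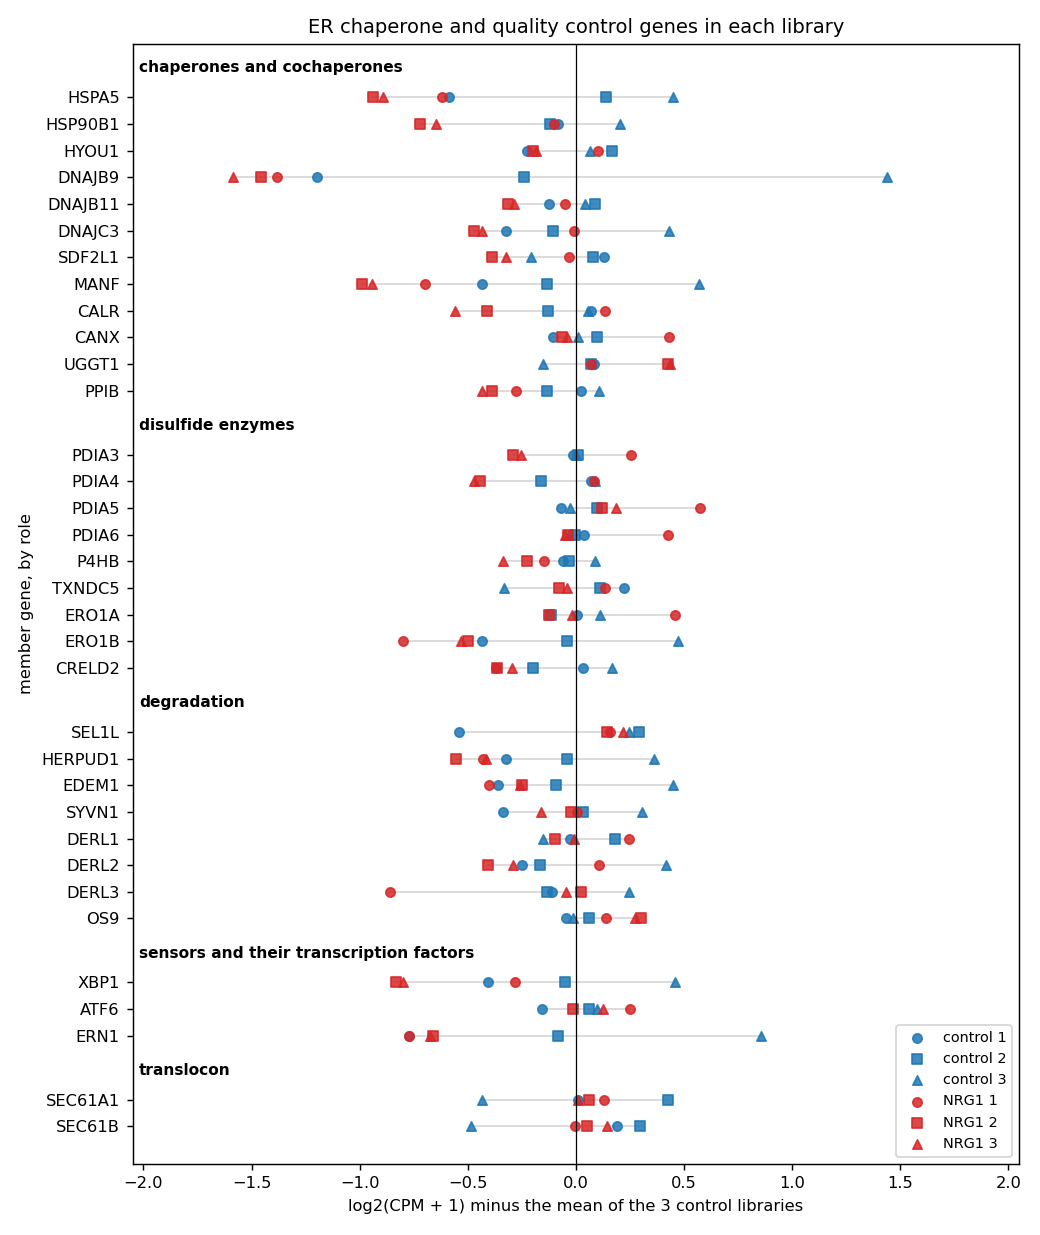
Each row is 1 of the 34 genes and each point 1 library, placed on the x axis by its log2(CPM + 1) minus the mean of the 3 control libraries; blue is control and red is NRG1. NRG1 points lie to the left of all control points in HSPA5, DNAJB9, MANF, PPIB, P4HB, ERO1B, CRELD2 and HERPUD1, and to the right in PDIA5 and OS9.

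HSPA5 encodes BiP, the ER HSP70 that binds unfolded chains and holds the stress sensors inactive. The control libraries 1, 2 and 3 held 1087, 1799 and 2226 CPM of it, and NRG1 1, 2 and 3 held 1061, 851 and 879.9 CPM. All NRG1 libraries were lower than all controls, but control 1 and NRG1 1 were nearly level. The mean was 1704 ± 575 CPM over the controls and 931 ± 114 CPM over the NRG1 libraries (SD, n = 3). The log2 fold change was -0.87 (SE 0.25; 95% interval -1.46 to -0.29; edgeR adjusted p = 0.359), and between -1.11 and -0.64 when each library was left out in turn. For HSPA5, as for each member whose groups did not overlap, a two-sided exact permutation test has p = 0.1, which 3 libraries against 3 cannot go below.

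DNAJB9 (ERdj4), a cochaperone that returns IRE1 to its inactive state through BiP, had the largest difference of the 34. The control libraries 1, 2 and 3 held 26.7, 52.8 and 171 CPM, and the NRG1 libraries 23.4, 22.1 and 20.2 CPM. The NRG1 libraries lay within a narrow range just under control 1, and control 3 was far above the rest. The log2 fold change of -1.93 (SE 0.60, edgeR adjusted p = 0.372) was -0.86 without control 3. Exons of DNAJB9 overlap THAP5 and PNPLA8 on the opposite strand, and these were also highest in control 3, at 83.8 and 89.0 CPM against 45.5 to 46.6 and 54.4 to 57.0 CPM in the other controls. Whether reads of these genes enter the DNAJB9 count was not tested.

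MANF, a secreted ER protein that binds BiP, was at 85.3, 105 and 172 CPM in control and 71.0, 57.7 and 59.6 CPM in NRG1. Every NRG1 library was under every control, and control 3 was again the highest. Its log2 fold change was -0.95 (SE 0.26, edgeR adjusted p = 0.359), and -0.61 without control 3.

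HSP90B1 (GRP94), the ER HSP90, showed another arrangement. It was at 816, 795 and 994 CPM in control and at 804, 524 and 552 CPM in NRG1. NRG1 1 sat among the controls, and NRG1 2 and NRG1 3 sat below them. The log2 fold change was -0.47 (SE 0.20, edgeR adjusted p = 0.446).

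PPIB (cyclophilin B), a prolyl isomerase of the ER, was at 287, 257 and 304 CPM in control and 233, 215 and 209 CPM in NRG1, so the groups did not overlap. Its log2 fold change was -0.37 (SE 0.14, edgeR adjusted p = 0.415), and between -0.43 and -0.32 when each library was left out in turn. Of the other chaperones and cochaperones, the lectin chaperone CALR and the HSP40-type DNAJB11 and DNAJC3 had log2 fold changes of -0.25, -0.22 and -0.33. With single libraries left out, CALR ran from -0.49 (without NRG1 1) to -0.12 (without NRG1 3), and DNAJC3 was at -0.09 without control 3. The cochaperone component SDF2L1 and the nucleotide exchange factor HYOU1 had values of -0.26 and -0.10. CANX, the membrane lectin chaperone, was at 1203, 1388 and 1304 CPM in control and 1747, 1239 and 1259 CPM in NRG1. Only NRG1 1 lay above the controls for CANX, and the interval of its log2 fold change ran from -0.27 to 0.52. UGGT1, the sensor that reglucosylates misfolded glycoproteins so that they rebind the lectin chaperones, was at 165, 164 and 140.0 CPM in control and 163, 209.8 and 211 CPM in NRG1. NRG1 2 and NRG1 3 were thus above all controls for UGGT1, while NRG1 1 was not (log2 fold change 0.32, SE 0.16, edgeR adjusted p = 0.481).

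**Figure D2:**
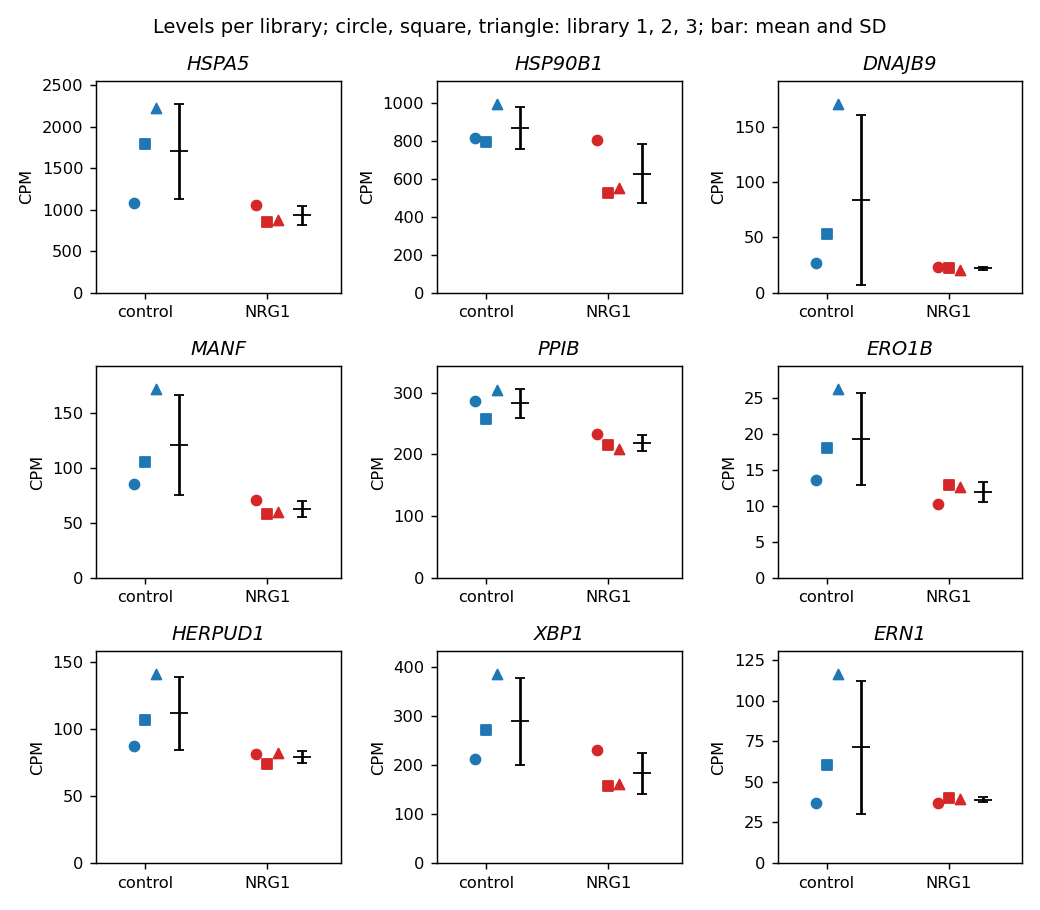
Levels in CPM (y axis, from 0) of the 9 genes with an unadjusted p under 0.05, with control libraries in blue and NRG1 libraries in red; circle, square and triangle are libraries 1, 2 and 3, and the bar gives the mean and SD (n = 3). DNAJB9 and ERN1 show a wide control range set by control 3 (171 and 116 CPM), while their NRG1 libraries lie close together.

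Among the 9 disulfide enzymes, ERO1B, P4HB and CRELD2 were lower in all NRG1 libraries and PDIA5 was higher, and the members did not share a direction. Of all tested genes, 10.2% were lower and 9.36% higher in all NRG1 libraries. ERO1B, an oxidase that recharges the isomerases, was at 13.5, 18.1 and 26.2 CPM in control and 10.3, 12.9 and 12.6 CPM in NRG1 (log2 fold change -0.69, SE 0.29, edgeR adjusted p = 0.444; -0.41 without control 3). Its paralog ERO1A was at 126, 116 and 136 CPM in control and 173, 115 and 124 CPM in NRG1, with a log2 fold change of 0.13 and an interval of -0.31 to 0.56.

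P4HB, the founding protein disulfide isomerase and a subunit of collagen prolyl hydroxylase, was at 696, 709 and 771 CPM in control and 654, 619 and 573 CPM in NRG1. The groups did not overlap for P4HB, although the difference was small, a log2 fold change of -0.24 (SE 0.14, edgeR adjusted p = 0.52). CRELD2, a stress-induced ER protein with isomerase-like activity, was at 37.1, 31.4 and 40.7 CPM in control and 27.8, 27.8 and 29.3 CPM in NRG1 (log2 fold change -0.36, SE 0.18). Exons of CRELD2 overlap ALG12 on the opposite strand, which held 110.0% of the counts of CRELD2, so the CRELD2 level is uncertain. PDIA5 was at 19.2, 21.7 and 19.8 CPM in control and 30.5, 22.1 and 23.1 CPM in NRG1, with a gap between the groups that was small beside the distance of NRG1 1 from the others. Its log2 fold change of 0.32 (SE 0.21, edgeR adjusted p = 0.576) was 0.16 without NRG1 1, and exons of SEC22A on the same strand overlap it.

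PDIA3, the isomerase that works with CALR and CANX, was at 506, 515 and 511 CPM in control and 609, 418 and 428 CPM in NRG1. Its 3 controls were close together, and the NRG1 libraries lay on both sides of them. PDIA4 and PDIA6 also had their highest NRG1 level in NRG1 1, at 247 and 436 CPM, against 171 and 316 CPM in NRG1 2 and 168 and 314 CPM in NRG1 3. PDIA4 had a log2 fold change of -0.26, and -0.46 without NRG1 1. TXNDC5 had a log2 fold change of -0.01 with an interval of -0.43 to 0.40. Pseudogenes named after PDIA3 held 5.9% as many counts as PDIA3 itself, and a readthrough transcript with BLOC1S5 held 2.28% as many as TXNDC5.

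In ER-associated degradation (8 genes), HERPUD1 and OS9 had groups that did not overlap, in opposite directions, as did 19.6% of all tested genes in either direction. HERPUD1 (HERP), a stress-induced scaffold of the degradation complex, was at 87.2, 106 and 141 CPM in control and 80.8, 74.1 and 81.7 CPM in NRG1. The log2 fold change was -0.50 (SE 0.20, edgeR adjusted p = 0.418), and -0.30 without control 3. OS9, a lectin that delivers misfolded glycoproteins to the complex, was at 172, 185 and 176 CPM in control and 196, 219 and 215 CPM in NRG1 (log2 fold change 0.24, SE 0.14, edgeR adjusted p = 0.517). OS9 was above the controls in each NRG1 library.

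SEL1L and SYVN1 form the core of the ubiquitin ligase, SYVN1 (HRD1) being the ligase itself and SEL1L its adaptor. SEL1L was at 144 CPM in control 1 and between 232 and 257 CPM in the other 5 libraries, a difference of control 1 alone. SYVN1 was at 63.4, 82.3 and 99.5 CPM in control and 80.6, 79.1 and 71.8 CPM in NRG1, inside the control range. EDEM1, which helps to pull misfolded glycoproteins out of folding, was at 102, 123 and 180.0 CPM in control and 99.4, 111 and 109.9 CPM in NRG1. EDEM1 had a log2 fold change of -0.34, which was -0.09 without control 3 and -0.03 without control 3 and NRG1 1. The derlins DERL1, DERL2 and DERL3, membrane proteins of the exit channel, had log2 fold changes of 0.05, -0.22 and -0.30 with intervals that included 0. DERL2 was at 0.0190 without control 3, and DERL3 at -0.0271 without NRG1 1. DERL3 was at 2.47 to 6.49 CPM in all libraries and shares exon positions with SMARCB1 on the opposite strand, which held 2301% as many counts.

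Of the sensors and their transcription factors, XBP1 and ERN1 were lower on average with NRG1, and ATF6 was not. XBP1 was at 211, 270.5 and 386 CPM in control and 231, 157 and 160.4 CPM in NRG1. NRG1 1 lay between control 1 and control 2 for XBP1, and NRG1 2 and NRG1 3 lay below all controls. The log2 fold change was -0.66 (SE 0.26, edgeR adjusted p = 0.416), and -0.41 without control 3. ERN1, the gene of IRE1, was at 36.9, 60.0 and 116 CPM in control and 37.0, 40.0 and 39.6 CPM in NRG1. All NRG1 libraries and control 1 were at about the same ERN1 level, with control 2 and control 3 above them, and the log2 fold change of -0.87 (SE 0.37, edgeR adjusted p = 0.446) was -0.32 without control 3. ATF6 was at 84.3, 98.4 and 101 CPM in control and 112, 93.3 and 103 CPM in NRG1; its groups overlapped, and its log2 fold change was 0.12 with an interval of -0.23 to 0.47.

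The translocation channel subunits SEC61A1, the pore, and SEC61B had log2 fold changes of 0.03 each, with intervals of -0.47 to 0.53 and -0.50 to 0.56. SEC61A1 was at 348, 464 and 255 CPM in control and 378, 359.8 and 347 CPM in NRG1. SEC61B was at 51.7, 55.8 and 32.0 CPM in control and 45.1, 47.0 and 50.04 CPM in NRG1. For both subunits control 3 was the lowest of the 6 libraries, the reverse of its place for HSPA5, DNAJB9, MANF, XBP1 and ERN1.

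Taken per length, the members spanned a wide range of abundance. Mean CPM per kilobase of merged exons (GENCODE 29) over the 6 libraries was highest for HSPA5 (337), followed by CALR (223), CANX (218), HSP90B1 (159) and PPIB (131). It was lowest for DERL3 (1.28), ERO1B (2.91) and ERN1 (5.06). Merged exons can be longer than the transcript a cell makes, so neighbours in this order are not told apart.

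The members also differed between libraries of 1 group. Control 3 was the highest control for 19 of 34 genes (55.9%; 40.9% of all genes), and control 1 was the lowest control for 20 (58.8%; 30.1% of all genes). NRG1 1 was the highest NRG1 library for 24 of 34 genes (70.6%; 44.9% of all genes), among them 11 of the 12 chaperones and cochaperones and 7 of the 9 disulfide enzymes. The median deviation of the 34 genes from the control mean, on the log2(CPM + 1) scale, was -0.09 in control 1, -0.02 in control 2 and 0.10 in control 3. Among the NRG1 libraries the median was -0.000375 for NRG1 1 and -0.27 for both NRG1 2 and NRG1 3, whereas over all tested genes it was between -0.014 and 0.0040 in every library.

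**Figure D3:**
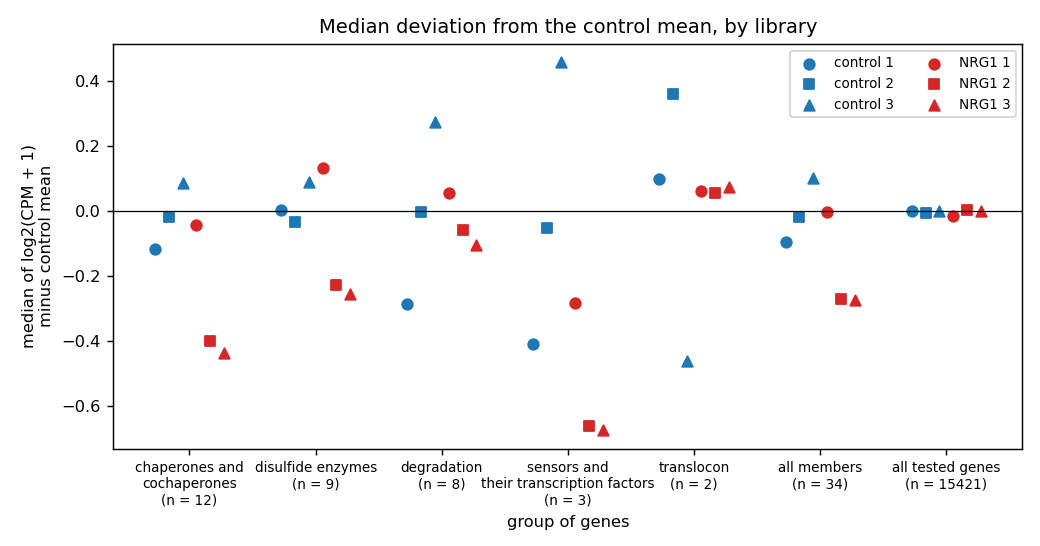
Median, over the genes of each group on the x axis, of log2(CPM + 1) minus the control mean (y axis), with 1 point per library. NRG1 2 and NRG1 3 lie below all controls for the chaperones (-0.40 and -0.43), the disulfide enzymes (-0.23 and -0.25) and the sensors (-0.66 and -0.67), while NRG1 1 lies within the control range for the chaperones and above it for the disulfide enzymes. NRG1 2 and NRG1 3 lie inside the control range for the degradation genes (-0.06 and -0.10) and the translocation channel (0.06 and 0.08).

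The count of 9 genes at an unadjusted p under 0.05 depended on single libraries. It was 8 without control 1 (7.68% of all genes were lower at this level), 9 without NRG1 1 (8.96%), 4 without control 2 (7.17%), 3 without control 3 (5.01%), 3 without NRG1 2 (3.09%) and 3 without NRG1 3 (2.82%), and in these last 3 comparisons the genes were DNAJB9, HSPA5 and MANF each time. Leaving out control 3 and NRG1 1 together, a comparison chosen with earlier results known, edgeR called HSP90B1, MANF and XBP1 as lower (adjusted p = 0.0203, 0.0208 and 0.0393), or 8.82% of the members where 9.62% of all genes were called. There the unadjusted p was under 0.05 for 12 members that were lower (13.6% of all genes) and for OS9 and UGGT1, which were higher (13.5%). In these 4 libraries both NRG1 libraries lay below both controls in 20 of 34 genes (58.8%; 28.8% of all genes) and above in 4 (11.8%; 29.4%). Both libraries were left out for their distance from the others, so these p-values are too small by an unknown amount.

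**Figure D4:**
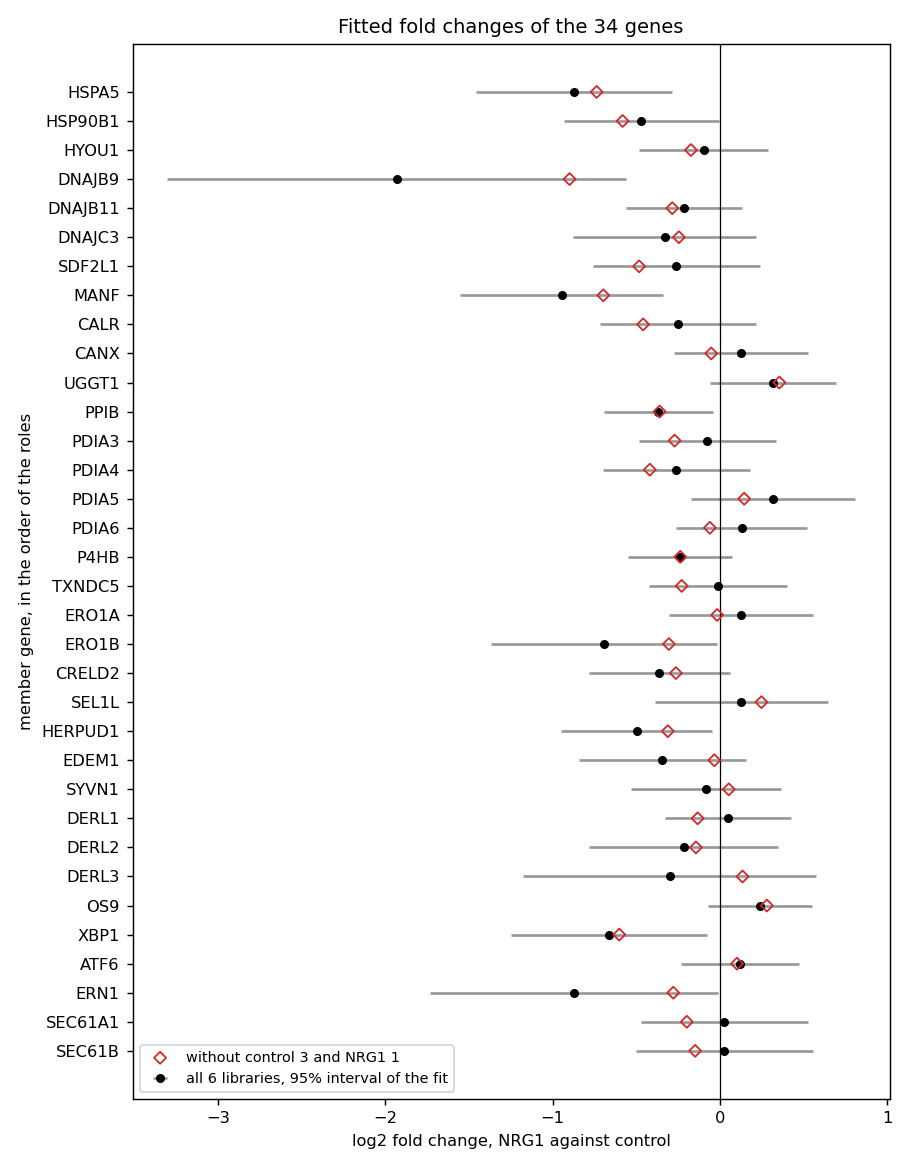
Log2 fold change of NRG1 against control (x axis) for the 34 genes (y axis): black points with 95% intervals are the fit to all 6 libraries, and red diamonds the fit without control 3 and NRG1 1. The value for DNAJB9 moves from -1.93 to -0.90 and that for ERN1 from -0.87 to -0.28, while PPIB (-0.37 and -0.36) and XBP1 (-0.66 and -0.60) stay near their first values.

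Read against the promoters, the 11 genes with an ERSE or ERSE-II had a median log2 fold change of -0.36, with 9 below 0. The 20 genes whose window held no exact match to either had a median of -0.15, with 12 below 0. Near matches and sites outside the window were not counted, so some of these genes may carry an element. Of the 9 genes with an unadjusted p under 0.05, 5 were among the 11 with an element (HSPA5, HSP90B1, XBP1, HERPUD1 and ERO1B) and 4 among the 20 without (DNAJB9, MANF, PPIB and ERN1). Over all tested genes, 6.51% were lower at this level, and 50.03% had a log2 fold change below 0. CANX and PDIA6 carry the ERSE too and had log2 fold changes of 0.12 and 0.13. DNAJB9 and MANF had the largest differences of the 34. The difference between the sets was not tested.

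Of 123 other genes of the ER pathway, listed by function with earlier results of these data known, 122 were tested. None passed edgeR over all genes (0 of 122), the unadjusted p was under 0.05 for 10 lower (8.2%; 6.51% of all genes) and 4 higher genes (3.28%; 4.64% of all genes), and the median log2 fold change was -0.01. DESeq2 called 3, all lower: WFS1, FICD and SRPRA, or 2.46% against 1.36% of all genes.

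The list of stress sensors and the PERK branch had the most genes at this level, 4 lower and 1 higher of 11 (36.4% and 9.09%; 6.51% and 4.64% of all genes). Its median log2 fold change was -0.68, but -0.0476 without control 3 and -0.25 without control 3 and NRG1 1. That median was the value of EIF2AK3, the gene of PERK, which was at 30.5, 32.2 and 90.3 CPM in control and 31.6, 31.9 and 32.1 CPM in NRG1. Control 3 alone stood apart for EIF2AK3, and its log2 fold change was 0.03 without control 3 and NRG1 1; it was chosen after its values were seen. WFS1, an ER membrane protein induced by stress, was at 36.6, 39.4 and 61.4 CPM in control and 21.4, 21.7 and 20.6 CPM in NRG1, with no overlap (log2 fold change -1.11, SE 0.24, edgeR adjusted p = 0.283, DESeq2 adjusted p = 0.00819). TRAF2, an adaptor that IRE1 recruits, was at 48.7, 43.5 and 78.4 CPM in control and 32.8, 29.2 and 24.0 CPM in NRG1 (log2 fold change -0.99, SE 0.26). The other lower genes and the higher one, chosen after their values were seen, were FICD, DDIT3 and ATF6B. FICD, the enzyme that switches BiP off by AMPylation, was at 8.46, 19.9 and 49.2 CPM in control and 5.32, 7.10 and 6.08 CPM in NRG1. DDIT3 (CHOP), a transcription factor of the PERK branch, was at 37.7, 72.0 and 227 CPM in control and 39.3, 42.9 and 48.7 CPM in NRG1, so control 1 lay below all NRG1 libraries. FICD and DDIT3 ranked the 3 control libraries as DNAJB9 and ERN1 did. ATF6B, the paralog of ATF6, was at 100.1, 109.9 and 63.2 CPM in control and 140.1, 144 and 134 CPM in NRG1, above the controls in each library.

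In the other lists, few genes reached an unadjusted p under 0.05 in edgeR, where 6.51% of all tested genes were lower and 4.64% were higher. Among folding cofactors the count was 1 higher and 1 lower of 21 (4.76% each). CLGN, a calnexin paralog, was at 11.8, 28.96 and 16.4 CPM in control and 33.0, 38.5 and 42.0 CPM in NRG1, above the controls in each library, whereas CNPY4 had a log2 fold change of -0.83 (SE 0.31). Of 18 disulfide and redox enzymes the count was 0, and the nearest, TXNDC12 and TXNDC11, had log2 fold changes of -0.41 and -0.61, the latter -0.29 without control 3. In the glycan trimming list it was 1 of 10, GANAB, the catalytic subunit of glucosidase II, at 682, 722 and 583 CPM in control and 867, 957 and 904 CPM in NRG1; EDEM3 had a log2 fold change of -0.25, and -0.10 without control 3. Of 25 degradation genes, AUP1 was higher (0.40, SE 0.14) and UFD1 lower (-0.45, SE 0.16) on the log2 scale, each 4.0% of that list. Of 37 genes of translocation, signal peptidase and oligosaccharyltransferase, 4 were lower (10.8%, against 6.51% of all tested genes) and 0 higher. SRPRA, a subunit of the receptor that docks ribosomes at the ER, was at 93.2, 127 and 116 CPM in control and 57.6, 67.0 and 74.8 CPM in NRG1. STT3A, a catalytic subunit of the oligosaccharyltransferase, was at 137, 126 and 113 CPM in control and 99.1, 80.7 and 80.5 CPM in NRG1. The other pair, chosen after their values were seen, were SSR2 and KDELR3, with log2 fold changes of -0.53 and -0.65. For SRPRA and STT3A the groups did not overlap, and their edgeR adjusted p-values were 0.327 and 0.365.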

How the data were processed

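Per the labels' protocols, a TruSeq RNA v2 kit turned polyA RNA into the 3 control and 3 NRG1 libraries; sample titles gave group and replicate number. The authors deposited expected counts, estimated reads per gene that need not be whole and are not scaled. Tools listed in the submitters' processing notes are RSEM 1.3.0, STAR 2.5.3a, MultiQC 0.9 and FastQC 0.11.3, with the build hg19; which annotation was used was not given in the sources used here. Estimated counts share reads among genes that they match, and the kit does not mark strand. Exons of 21 members overlap another gene in GENCODE 29, and for 9 of them that gene held at least 10% as many counts, so these levels are uncertain: CRELD2, DERL1, DERL2, DERL3, DNAJB11, DNAJB9, PDIA5, SEC61A1 and SYVN1. A second deposited table, of log values for fewer genes, was not used here.

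Expected counts, once rounded, entered edgeR 4.0.16 under R 4.3.3 (filterByExpr, TMM scaling, quasi-likelihood, no covariate), adjusted by Benjamini-Hochberg over 15421 genes; the threshold was an adjusted p under 0.05. Intervals of fold changes use the fit's t distribution and are not adjusted. The fit was tested on simulated data. Symbols were matched on identifiers for 51959 of 57736 genes. Libraries held 8612234 to 13207620 expected counts, and counting error is largest for genes at a few CPM. The members and lists were chosen with earlier results of these data known. Members given in full were HSPA5, HSP90B1, XBP1, ATF6 and ERN1, those whose groups do not overlap and those with an unadjusted p under 0.05; in each wider list the 2 genes with the smallest p were named. Alternatives were DESeq2 1.42.0, other scalings and filters, limma 3.58.1, a replicate block and leaving out libraries.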

Additional observations from a re-analysis of the deposited data

How the results depend on the processing

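Of the 34 genes, edgeR called 0 with all 6 libraries, and 0 with upper-quartile scaling, library totals alone, a filter of 1 CPM in 3 libraries, both limma-trend settings, limma-voom and any single library left out. DESeq2 called 1 (DNAJB9), edgeR without a low-count filter called 3 (HSPA5, DNAJB9 and MANF), and the 2 against 2 comparison called 3; the cause was not tested. For the 122 other ER pathway genes (123 without the filter) these 3 settings called 3, 2 and 9, against 0, or 2.46%, 1.63% and 7.38% of them, where 1.36%, 0.731% and 9.62% of all genes were called. The median log2 fold change of the members stayed negative in all settings, from -0.29 to -0.16 with single libraries left out.

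The replicate number as a block called 0 members, with a median of -0.23. Over the tested genes, deviations of same-numbered libraries from their group means had correlations of 0.03, 0.17 and -0.09. Differently numbered pairs were not compared, so these values cannot tell whether same-numbered libraries share a culture or batch.

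The members whose sign turned, none of them called, lay between -0.30 (DERL3) and 0.13 with all 6 libraries. TXNDC5 was at 0.0226 with upper-quartile scaling, 0.0051 and 0.0052 with limma-trend, 0.0061 with limma-voom and 0.0049 with the replicate block. SEC61A1 and SEC61B were at -0.0118 and -0.0051 on library totals alone. In the 2 against 2 comparison CANX was at -0.0519, PDIA6 at -0.0600, ERO1A at -0.0163, SYVN1 at 0.0534, DERL1 at -0.13, DERL3 at 0.14, SEC61A1 at -0.20 and SEC61B at -0.15. With single libraries left out the ranges were -0.0551 to 0.21 for CANX, -0.27 to 0.0221 for PDIA3, -0.0428 to 0.21 for PDIA6, -0.17 to 0.10 for TXNDC5, -0.0733 to 0.24 for ERO1A, -0.10 to 0.27 for SEL1L, -0.24 to 0.0763 for SYVN1, -0.0585 to 0.15 for DERL1, -0.39 to 0.0190 for DERL2, -0.17 to 0.26 for SEC61A1 and -0.19 to 0.18 for SEC61B.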
